A study of Saccharomyces cerevisiae with 2 samples.

Results

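The 18S rRNA was examined nucleotide by nucleotide in the pileups of a CRAC experiment on the yeast protein Rbp95. Its members are the 1800 nucleotides at positions 701 to 2500 of the 35S pre-rRNA, which has 6858, chosen by position alone, and 18S numbering is obtained by subtracting 700. In the R64 assembly these positions correspond to RDN18-1, on the minus strand of chromosome XII at 455933 to 457732. The rDNA is a repeat, and the gene table holds 2 units, so the values cannot be assigned to a single copy. How reads that match both units were placed is not given in the sources used here. Baker's yeast of the BY4741 background carried either Rbp95 (Ycr016w) with a C-terminal His6-TEV-protein A (HTP) tag at its own gene or no tag, and each condition is represented by 1 library. Both cultures were grown in minimal medium lacking tryptophan to an OD of 0.6 and irradiated with UV light for 100 s, and the cDNA was amplified in 16 PCR cycles. The methods of the study name BY4742 as the control strain, and the design text deposited with the series names Nap1_HTP, so the tagged library rests on its sample title. With 1 library per condition no difference has a replicate check, and no test was made.

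The 18S rRNA is the RNA of the small (40S) ribosomal subunit. It is cut out of the same transcript that also yields the large-subunit RNAs (25S and 5.8S), and it folds into a 5′ domain (the body), a central domain (the platform) and a 3′ domain (the head, followed by the long helix h44 with the decoding site). Rbp95 is a nucleolar assembly factor of the large subunit. In CRAC, RNA is crosslinked to the protein in living cells, trimmed with RNases, provided with linkers at both ends while bound to the protein, reverse transcribed and sequenced. A read can therefore run from 1 RNase cut to another, and a substitution or deletion within a read can mark a crosslinked nucleotide.

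The 5 covered stretches of the 18S rRNA with the most hits are given first, because they hold 70.1% of its hits in the Rbp95-HTP library. Each is written as DNA, 5′ to 3′ along the RNA, from the sequence column of the deposited pileup. Capitals run from the most frequent read start of the stretch to its most frequent read end. These sites can hold a minority of the reads and need not belong to the same reads.
Nucleotides 173 to 205 (chrXII:457528-457560, minus strand): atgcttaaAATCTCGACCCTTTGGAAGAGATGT
Nucleotides 295 to 396 (chrXII:457337-457438, minus strand): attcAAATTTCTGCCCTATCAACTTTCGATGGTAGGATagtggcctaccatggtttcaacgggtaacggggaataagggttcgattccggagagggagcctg
Nucleotides 477 to 517 (chrXII:457216-457256, minus strand): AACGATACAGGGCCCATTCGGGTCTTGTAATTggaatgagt
Nucleotides 529 to 600 (chrXII:457133-457204, minus strand): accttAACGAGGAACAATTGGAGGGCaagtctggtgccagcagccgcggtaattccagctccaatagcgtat
Nucleotides 1091 to 1135 (chrXII:456598-456642, minus strand): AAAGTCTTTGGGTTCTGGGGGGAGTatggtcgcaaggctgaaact

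A hit is 1 read covering 1 nucleotide. The Rbp95-HTP library had 134092 hits on the 18S rRNA, which was 4.59% of its hits on the 35S pre-rRNA, whereas the 18S rRNA makes up 26.2% of the length. The control had 420 hits, or 0.0104%. Hits rise where reads begin, so the sum of the upward steps gives a lower bound of the number of reads. By this measure 4841 of 97296 reads in the Rbp95-HTP 35S pileup lay on the 18S rRNA (4.98%, 95% Wilson interval 4.84 to 5.11%). In the control 35S pileup it was 11 of 99994 reads (0.0110%, 0.00614 to 0.0197%). These intervals, like all others given here, cover counting error only and treat each read as an independent molecule, although no collapsing of PCR copies is stated. Both pileups were limited to 100000 reads by the authors, so that the depth of the libraries is unknown and the peak at helix H95 of the 25S rRNA, with up to 66665 hits, takes reads from every other region of the Rbp95-HTP pileup. The control pileup was likewise filled by other regions, with 73.5% of its reads on the 25S rRNA (up to 35268 hits) and 25.2% on the 5.8S rRNA (up to 25168 hits), which lowers its 18S share in the same way. Without the hits of the peak at helix H95 the 18S share of the Rbp95-HTP library was 13.9%. Read numbers do not separate more contacts per RNA from more RNA of this kind in the purified material.

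The density of hits on the 18S rRNA was below that of the other mature rRNAs and in the range of the spacers. Its mean was 74.5 hits per nucleotide, compared with 219 for the 25S rRNA without the peak at helix H95 and 176 for the 5.8S rRNA. ITS1 had 76.6, ITS2 55.0 and the 5′ ETS 43.7 hits per nucleotide, and the 3′ ETS had no hit. At least 1 hit was found on 879 nucleotides, or 48.8% of the 18S rRNA, against 66.6% of the 25S rRNA without that peak. The hits were at least 10-fold above the control, with the control set to no less than 3 hits, at 751 nucleotides or 41.7% of the 18S rRNA. The same held for 48.8% of all positions along the 35S pre-rRNA, so the 18S rRNA lay below this background. The mean read length on the 18S rRNA was 27.7 nucleotides, close to the 28.01 nucleotides on the 25S rRNA outside the peak.

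**Figure D1:**
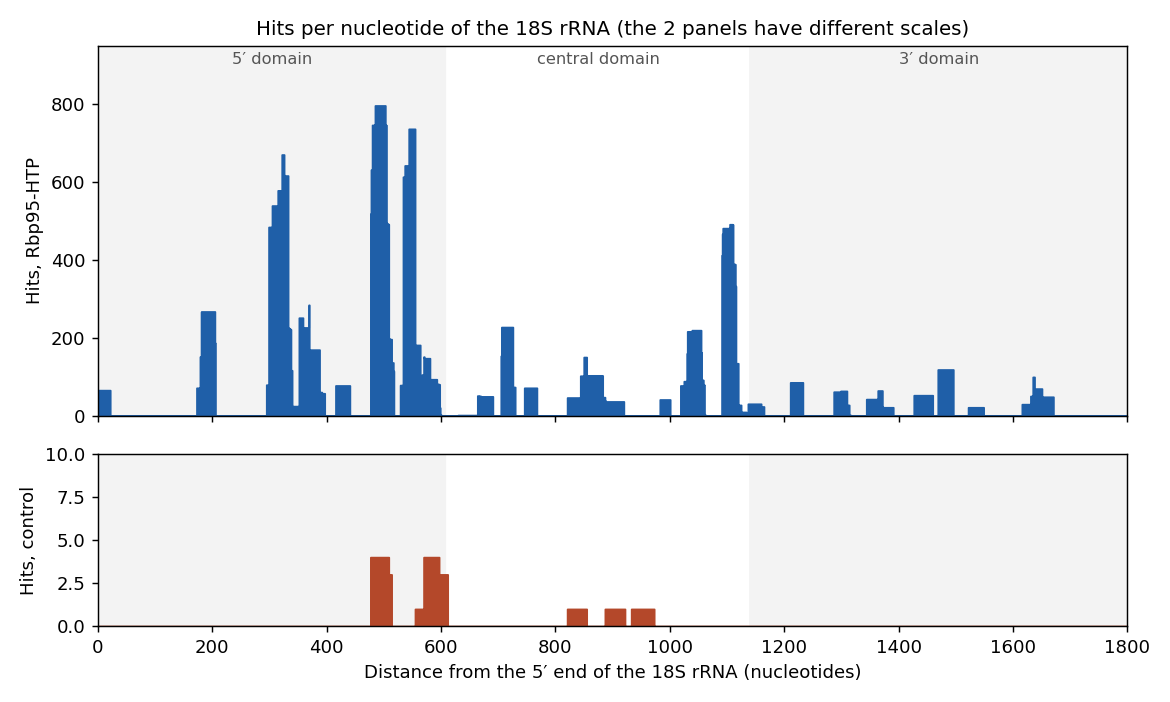
Hits per nucleotide (vertical axes) against the distance from the 5′ end of the 18S rRNA (horizontal axis) in the Rbp95-HTP library (upper panel) and the control (lower panel, smaller scale), with the 3 domains as bands. The highest Rbp95-HTP values, up to 797 hits, lie in the 5′ domain, and no control value exceeds 4 hits.

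The contacts were concentrated in the 5′ domain, as the plot of hits along the 18S rRNA shows. With approximate borders at nucleotides 610 and 1140, the 5′ domain held 63.4% of the hits on 33.9% of the length, the central domain 25.9% on 29.4% and the 3′ domain 10.7% on 36.7%. Per nucleotide this was 139, 65.5 and 21.8 hits. Counted as reads, the shares were 61.3% (95% Wilson interval 59.9 to 62.6%), 28.2% (27.0 to 29.5%) and 10.5% (9.68 to 11.4%). These intervals take every read as independent, although the reads of the whole 18S rRNA began at only 54 sites. They are therefore no measure of the difference between the domains. The share of nucleotides with any hit followed another order, with 60.0% in the central domain, 48.0% in the 5′ domain and 40.6% in the 3′ domain. The 5′ domain therefore had fewer covered nucleotides than the central domain, but higher stacks of reads on them. In the control, 8 of the 11 reads lay in the 5′ domain, 3 in the central domain and none in the 3′ domain.

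**Figure D2:**
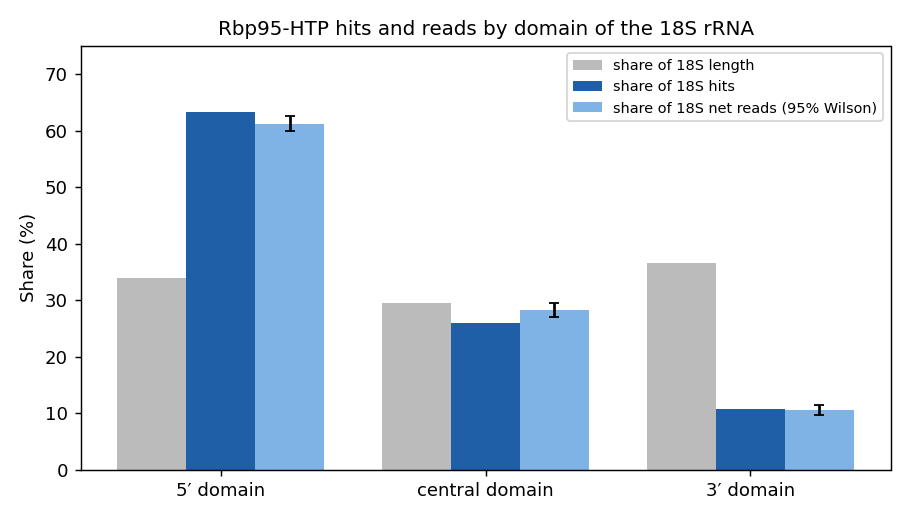
Share in percent (vertical axis) of the 18S length, of the Rbp95-HTP hits and of the Rbp95-HTP net reads in each domain (horizontal axis), with error bars for the 95% Wilson intervals of the read shares. The 5′ domain has 33.9% of the length and 63.4% of the hits, the 3′ domain 36.7% of the length and 10.7% of the hits.

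Within the 5′ domain, the highest point of the 18S rRNA was at nucleotide 485, with 797 hits for Rbp95-HTP and 4 for the control. It reached 1.20% of the height of the 35S maximum at helix H95. The reads of this stretch began at nucleotide 477 in most cases, with 519 net starts, followed by 115 at nucleotide 480 and 113 at nucleotide 478. Their ends were spread more widely, with 293 net ends at nucleotide 508, 251 at nucleotide 504 and 115 at nucleotide 517. The 4 control reads of this stretch also began at nucleotide 477.

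The second peak, with 737 hits against 0 in the control, was at nucleotide 544 in the stretch from 529 to 600. Most of the 801 net reads of this stretch began at nucleotide 534, with 535 net starts, and most ended at nucleotide 554, with 555 net ends. Further along the same stretch lies the loop of helix h18, which lines the decoding site of the small subunit and was located by its conserved run CCGCGGTAA at nucleotides 572 to 580, the only match on either strand of the 35S pre-rRNA. This run was covered by 148 hits, fewer than at the peak of the stretch. The control had up to 4 hits on it. The 3 control reads that began at nucleotide 570 shared this start with 46 net starts of the Rbp95-HTP library.

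The third peak was at nucleotide 322 with 671 hits, in the longest covered stretch, from nucleotide 295 to 396. Its most frequent start was nucleotide 299, with 405 of the 956 net reads of the stretch, and its most frequent end was nucleotide 332, with 391. A separate group of 227 reads began at nucleotide 352. Where 58 further reads began, at nucleotide 369, the hits rose to 285 at that single nucleotide, since 115 reads ended there, and 170 hits followed. Nucleotide 369 is 47 nucleotides from the third peak, so the minimum distance between peaks placed this peak at nucleotide 372 with 170 hits. The stretch from nucleotide 173 to 205 reached 268 hits, with 115 net starts at nucleotide 181 and 187 net ends at nucleotide 205. The control had no hit on either of these stretches, where 3 reads would be 0.0030% of its 35S reads.

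The central domain had its highest point at nucleotide 1105, with 492 hits against 0 in the control, close to its 3′ border. Here 412 net reads began at nucleotide 1091, and the most frequent end was nucleotide 1115 with 198 net reads. The next peaks of this domain were lower, with 228 hits at nucleotide 706, 220 hits at nucleotide 1039 and 151 hits at nucleotide 850. The control had 1 hit at nucleotide 850 and none at nucleotides 706 and 1039. At nucleotide 706 the reads fell into 2 groups of starts, of which the larger, 154 net reads, began at nucleotide 705, and 154 net reads ended at nucleotide 725.

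In the 3′ domain no nucleotide had more than 119 hits. This value was reached at nucleotide 1469, where all 119 reads of a stretch began, and 118 of them ended at nucleotide 1495. The next peak, with 100 hits at nucleotide 1635, lies on the conserved run CACACCGCC at nucleotides 1632 to 1640, next to the decoding site, which was covered by 51 to 100 hits. The run GAATTGACG at nucleotides 1141 to 1149, at the beginning of the 3′ domain, was covered by 31 hits throughout. Each of these runs matched once on the 35S pre-rRNA and not at all on the opposite strand. The control had no hit anywhere in the 3′ domain.

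Of the 23 peaks found on the 18S rRNA at a distance of at least 50 nucleotides, 11 had at least 100 hits, 5 of them in the 5′ domain, 4 in the central domain and 2 in the 3′ domain. Some of the 23 were placed by this distance and are no separate maxima. Nucleotide 644 was taken with 2 hits, while nucleotide 664 with 52 hits was passed over, 42 nucleotides from the higher peak at nucleotide 706. The 10 highest peaks ranged from 119 to 797 hits, which is from 0.179% to 1.20% of the 35S maximum, and the control had between 0 and 4 hits at these nucleotides.

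The uncovered parts of the 18S rRNA included both of its ends. The longest run without a hit extended over 151 nucleotides, from nucleotide 22 to 172, and the second over 129 nucleotides, from nucleotide 1672 to the 3′ end. The run GGATCATTA at nucleotides 1792 to 1800, the very 3′ end of the 18S rRNA, thus had no hit in either library. No read of either library crossed the border to the 5′ ETS or to ITS1. The 66 reads nearest to the 5′ end began at nucleotide 2, and upstream of them the 5′ ETS had no hit over its last 43 nucleotides. Downstream of the 18S rRNA the first hit in ITS1 was found after 78 uncovered nucleotides. By contrast, the nucleotides on both sides of the border between the 5.8S rRNA and ITS2 were covered with Rbp95-HTP, by 244 and 81 hits.

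The hits of the Rbp95-HTP library formed 21 separate stretches on the 18S rRNA, with a median length of 33 nucleotides and highest values of 22 to 797 hits. In 7 of them the number of hits was the same at every nucleotide, so that all reads could share both ends. These flat stretches were 18 to 33 nucleotides long and held 22 to 86 reads each, together 419 reads. The 66 reads at the 5′ end, from nucleotide 2 to 21, and the 86 reads from nucleotide 1211 to 1232 were among them. Only 3 of the 21 stretches had any control hit. The GC content was 48.1% over the covered and 41.7% over the uncovered nucleotides, a description without a test. Whether the stacks are copies of single molecules made in the PCR was not tested.

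Read starts fell on fewer nucleotides than read ends. The 4841 net starts fell on 54 nucleotides, and 8 of these were enough for 50% of them, while the net ends fell on 88 nucleotides, and 11 were needed. The 5 largest start sites, at nucleotides 534, 477, 1091, 299 and 352, held 43.3% of the starts. The largest of them held 11.1% (95% Wilson interval 10.2 to 11.97%) and had no control start. The 5 largest end sites, at nucleotides 554, 332, 508, 504 and 1115, held 34.9% of the ends. Because a start and an end on adjoining nucleotides cancel in the pileup, the numbers of net reads and of sites are lower bounds, whereas the shares could shift either way. Over the whole 35S pre-rRNA 1 start site, the one at helix H95, held over 50% of the reads, so the 18S reads came from a broader set of sites.

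**Figure D3:**
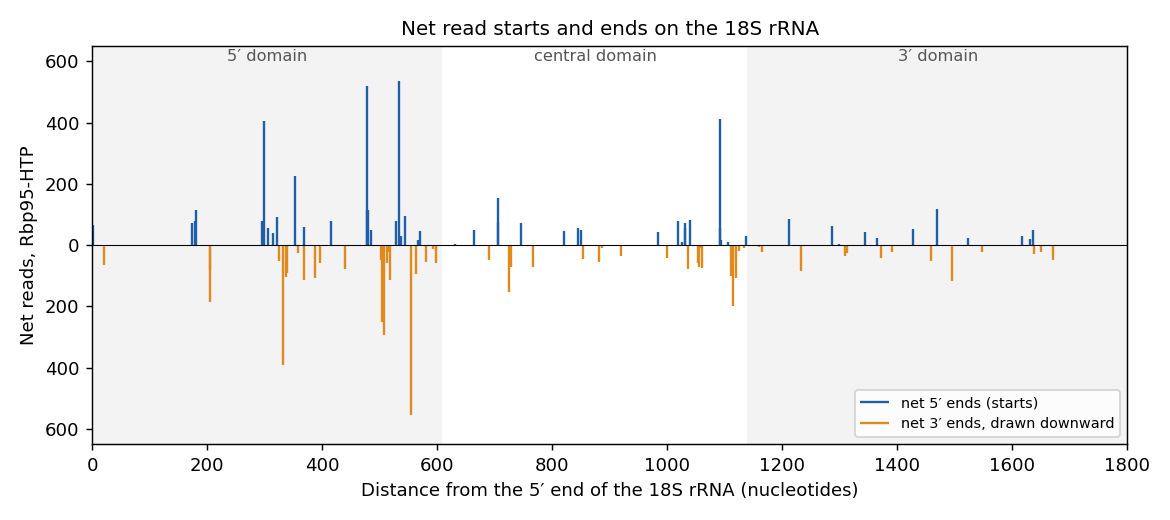
Net reads of the Rbp95-HTP library that begin (upward lines) or end (downward lines) at each nucleotide, against the distance from the 5′ end of the 18S rRNA. The tallest lines are the 535 starts at nucleotide 534 and the 555 ends at nucleotide 554.

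The starts followed pyrimidines. The base just upstream of a start was C or T (U in the RNA) for 92.2% of the net starts, while C and T make up 47.7% of the 18S rRNA. It was A for 7.37% and G for 0.454%. On the rest of the 35S pre-rRNA 93.6% of the starts followed C or T. Counted as sites rather than reads, 46 of the 54 start sites followed a pyrimidine. The last nucleotide of the reads was C or T in 71.3% of the net ends, with T alone in 52.0%, but also G in 17.99% and A in 10.7%. As sites, 44 of the 88 ends fell on a pyrimidine. The RNase mixture of the protocol contains RNase A, which cuts after pyrimidines, and RNase T1, which cuts after G.

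Altered hits, that is substitutions plus deletions, numbered 1377 on the 18S rRNA of the Rbp95-HTP library, which was 1.03% of its hits. They were unevenly distributed. A hit number of 100 or more was reached by 334 nucleotides, and in 5 of them (1.497%) the altered share was 10% or higher. Over the whole 35S pre-rRNA this share was 1.17%, so the 18S rRNA was near the background. These 5 nucleotides held 62.5% of the altered hits. The median altered share over the 334 nucleotides was 0%. The windows of 31 nucleotides around the 5 are printed here to show their surroundings, with the altered nucleotide in capitals and 18S numbering.
C310 (chrXII:457408-457438, minus strand): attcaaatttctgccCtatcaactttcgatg
A545 (chrXII:457173-457203, minus strand): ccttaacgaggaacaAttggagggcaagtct
G571 (chrXII:457147-457177, minus strand): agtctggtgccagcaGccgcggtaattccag
C849 (chrXII:456869-456899, minus strand): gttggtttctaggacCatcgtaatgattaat
G1114 (chrXII:456604-456634, minus strand): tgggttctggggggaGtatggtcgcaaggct

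A545, in the second highest peak, had a substitution in 642 of 737 hits, or 87.1% (95% Wilson interval 84.5 to 89.3%). It held 46.6% of all altered hits of the 18S rRNA, and neither of its neighbors was altered in more than 0.136% of the hits. Reads covering it began at nucleotides 529, 534, 537 and 544, with 79, 535, 29 and 94 net starts. The first 3 of these add up to 643 reads, 1 more than the number of altered hits. A pileup does not link an alteration to a read, so it remains unknown whether the reads that began at nucleotide 544 were the unaltered ones. The control had no hit at A545.

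The other 4 nucleotides had fewer altered hits. C849 was substituted in 56 of 103 hits (54.4%), G571 in 54 of 148 (36.5%) and G1114 in 55 of 389 (14.1%), and C310 had 53 deletions and 1 substitution in 540 hits, which placed it exactly at the threshold of 10%. G571 lies directly upstream of the conserved run in the loop of helix h18. At each of these 4 the number of altered hits was matched, within 2% or 1 read, by at least 1 group of net starts or ends within 40 nucleotides. For C849 the nearest such group was the 56 net starts at nucleotide 844, and for G571 the 54 net ends at nucleotide 580. For G1114 it was the 56 net ends at that nucleotide itself and for C310 the 55 net starts at nucleotide 305. A further group within the tolerance was found for C849 (55 net ends at nucleotide 882), G1114 (55 net starts at nucleotide 1092) and C310 (53 net ends at nucleotide 325). Groups of similar size also occurred elsewhere, such as 57 net starts at nucleotide 1031 and 53 at nucleotide 1427. How often such a match would be found at other nucleotides was not tested, so the matches do not link alterations to groups of reads. Just below the threshold, C321 was altered in 39 of 579 hits (6.74%), and 39 net reads began at nucleotide 315. The nucleotide ranked after C321, G858, was altered in 1.92% of its hits. The control had 4 hits at G571 and 1 at C849, none altered, and no hit at G1114 or C310.

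With the minimum lowered to 10 hits, 4 more nucleotides passed the threshold of 10%. T767 was substituted in 72 of 72 hits, T1522 in 22 of 22, T1544 in 22 of 22 and T1372 in 22 of 23. T767 is the last nucleotide of a flat stretch of 72 reads, and T1522 and T1544 belong to a single flat stretch of 22 reads, at its first nucleotide and 4 nucleotides before its last. The 9 nucleotides together held 72.5% of the altered hits. Without them 0.286% of the 18S hits were altered. The rest of the 35S pre-rRNA had 0.332%, with only its nucleotides of at least 100 hits and at least 10% altered left out. The 35S pileup of the control, with nothing left out, had 0.282%, so these shares rest on unlike exclusions. Among the remaining nucleotides of the 18S rRNA the substituted share was 0.354% for C (95% Wilson interval 0.287 to 0.438%) and 0.329% for T (0.274 to 0.395%). It was 0.2995% for A (0.246 to 0.365%) and 0.182% for G (0.145 to 0.229%), so that the interval of G lay below the other 3. Of the 85 substitutions at C, 39 were at C321, which stayed in because its altered share was below 10%. The value of C and its place in the order therefore rest largely on that nucleotide. Whether the interval of G would lie below that of C without C321 was not tested. The rest of the 35S pre-rRNA had another order, with 0.383% for T, 0.329% for G, 0.296% for A and 0.229% for C. Hits of the same read are not independent, and these intervals are too narrow for that reason.

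**Figure D4:**
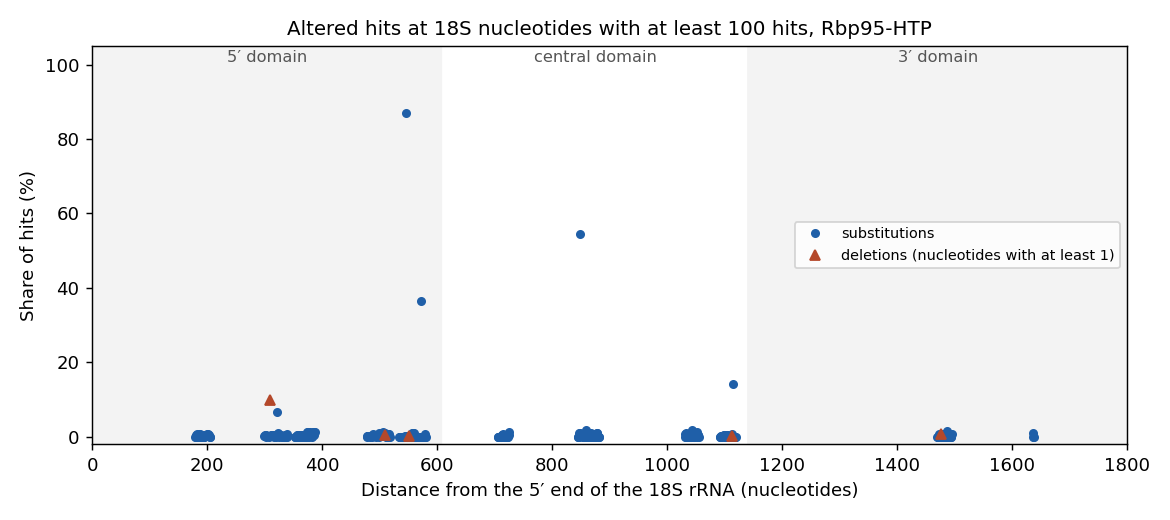
Share in percent (vertical axis) of the Rbp95-HTP hits that carry a substitution (circles) or a deletion (triangles) at each 18S nucleotide with at least 100 hits, against the distance from the 5′ end of the 18S rRNA. A545 stands at 87.1%, and nearly all other nucleotides lie close to 0.

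Deletions were rare and came from 1 place. The 18S rRNA had 59 deletions and 1318 substitutions, so that deletions made up 4.28% of its altered hits (95% Wilson interval 3.34 to 5.49%), compared with 0.190% on the 25S rRNA, 15.2% on the 5′ ETS and none on ITS1, the 5.8S rRNA and ITS2. The 18S rRNA held 41.5% of the 142 deletions in the 35S pileup of the Rbp95-HTP library. Of the 59 deletions, 53 were at C310, and the other 6 were single deletions at 6 nucleotides. Without C310 deletions made up 0.454% of the altered hits of the 18S rRNA, against 0.545% on the 25S rRNA outside the peak at helix H95. The 18S value still counts the 642 substitutions at A545, which lower it. C310 is the last of 3 C in a row, at nucleotides 308 to 310, with 540 hits at each. The loss of any of them gives the same read, so the deletion can be placed in the run but not at a single nucleotide. Exactly 53 net reads ended at nucleotide 325, and no hit of the control lay on this run. The substitutions, in contrast, were found at 236 nucleotides of the 18S rRNA.

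The control left little on the 18S rRNA to compare with. Its 11 reads covered 203 nucleotides, 150 of which were also covered with Rbp95-HTP, and had a mean length of 38.2 nucleotides, against 40.2 nucleotides over the whole 35S pileup of the control. They contained 5 substitutions and no deletion. Of the 6 control start sites, those at nucleotides 477, 570 and 821 were also start sites of the Rbp95-HTP library, with 519, 46 and 47 net reads there. Hits of the Rbp95-HTP library on the 18S rRNA were 319 times as many as those of the control, and net reads 440 times as many. The 2 pileups were similar in net reads of the 35S pre-rRNA, but the Rbp95-HTP library had fewer hits there, 2922907 against 4024737. Both ratios rest on the 11 control reads and on 2 pileups of limited size that other regions fill, and they describe these libraries only.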

How the data were processed

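CRAC libraries of Rbp95-HTP cells and of the untagged control, 1 each, were compared. The authors cleaned the reads with Flexbar, aligned them with Novoalign (the submitters' notes name R64 as the build) and deposited counts made with pyPileup: hits, deletions and substitutions per position of the 35S pre-rRNA, in a pileup limited to 100000 reads. Versions and collapsing of duplicates are not given in the sources used here. The deposited class and snoRNA tables were not used.

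The borders of the 18S rRNA were taken from the gene table of R64. The domain borders are approximate and come from general knowledge of the secondary structure. Net starts and ends are the upward and downward steps of the hits. Peaks were taken highest first and at least 50 nucleotides apart. Nucleotides with at least 100 hits, at least 10% of them altered, were listed. The text names the 10 highest peaks, the 5 largest start and end sites, the altered nucleotides, those with at least 5 deletions, the highest control nucleotides and the 2 longest gaps. The members, lists and rules were chosen with earlier results of these data known; the nucleotides with fewer than 100 hits, C321, the conserved runs, the flat stretches, further peaks and ends, and the borders to the spacers were named after their values were seen. Wilson intervals (95%) cover counting error only. Python 3.11.15, numpy 2.4.6, scipy 1.17.1 and matplotlib 3.10.9 were used. Peak finding, net reads and the listing of altered nucleotides were tested on 200 simulated pileups of 1800 nucleotides with well separated stacks, and all 200 were recovered. Overlapping stacks, which the 18S rRNA has, were not simulated, so the recovery does not extend to them. Alternatives concerned the measure, the denominator, borders, distances and minimums.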

Additional observations from a re-analysis of the deposited data

How the results depend on the processing

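No paired analysis was possible because each condition has 1 library. Of 31 alternatives, 15 left a value within its interval or a count within 1.5 times. The 18S share of 35S hits, 4.59%, was 4.98% by net read starts, 13.9% without the peak at helix H95 and 3.77% without the highest 18S peak. By net read starts the 5′ domain held 61.3% and the central domain 28.2%. Without the highest 18S peak the shares of the 5′, central and 3′ domains were 55.0%, 31.8% and 13.2%, in the same order. With starts on adjoining nucleotides merged, the 5 largest start sites held 46.8%. The number of altered nucleotides, 5, was 3 with at least 200 hits, 3 with at least 20% altered, 0 with deletions alone and, by a minimum chosen after seeing the data, 9 with at least 10 hits. Without C310, which holds most deletions, 6 deletions remained, and the share of deletions among altered hits fell from 4.28% to 0.454%, a setting also chosen after seeing the data. Without A545, the most altered nucleotide, that share was 8.03%. The number of peaks with at least 100 hits, 11, was 15 with peaks at least 25 nucleotides apart, 8 with 100 nucleotides and 11 with the control hits subtracted. The depth of the libraries is unknown, and 11 control reads limit every comparison with the control.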
